A study of Saccharomyces cerevisiae with 2 samples.

Results

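The genes described here encode Rpl1 to Rpl20, the proteins numbered first among those of the large subunit of the yeast cytosolic ribosome. They are the 37 rows of the deposited codon table whose identifiers belong to RPL1A to RPL20B, of 4579 listed genes, and all 37 identifiers carried the matching RPL symbol in RefSeq. The proteins number 20, of which 17 are made from an A and a B copy of the gene and 3 (Rpl3, Rpl5 and Rpl10) from a single gene. The study profiled Saccharomyces cerevisiae strain yJC2229 with 2 libraries, 1 of ribosome footprints (the mRNA fragments that ribosomes shield from nuclease) and 1 of total RNA. Both came from cells kept at 24 °C in YPD with 2% glucose and harvested in mid-log phase with no pretreatment, and cycloheximide, which halts elongating ribosomes, was in the lysis buffer. The footprints are those of 80S ribosomes from a sucrose gradient. The RNA of the other library was depleted of rRNA with Ribo-Zero and broken by alkaline hydrolysis. The samples analysed here cover 1 strain and 1 condition, so the comparisons run between genes, between the copies of a gene and between codons.

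The large subunit holds the peptidyl transferase centre, where amino acids are joined, and the tunnel through which the new chain leaves. Each ribosome carries all of these proteins, and growing yeast spends a large part of its transcription and translation on making them. Most of the genes were kept in duplicate after the ancient genome duplication of this lineage, many carry an intron, and their coding sequences use a small set of favoured codons.

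The table gave 3756929 footprints over the listed genes, and its abundance column, whose unit behaves as CPM (reads per gene scaled to a fixed library total), corresponded to 21353772 whole reads of the same genes. The column does not name its library, so its values are called reads here. With 1 library of each kind no difference had a replicate check, and the 95% intervals cover counting error only, since reads amplified by PCR without molecular identifiers are not independent molecules. Genes with at least 100 footprints and at least 100 reads, 2939 in all, formed the tested genes, and all 37 RPL genes were among them.

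The 37 genes together held 290973 footprints and 989795 reads, which were 7.74% of the footprints and 4.64% of the reads of all listed genes. Per gene the footprints ran from 485 (RPL15B) over a median of 6732 to 25628 (RPL10), and the reads from 831 (RPL15B) over a median of 20464 to 122655 (RPL3), or 38.2 to 5634 CPM. Next to RPL15B, the genes with the fewest footprints were RPL18B with 1065 footprints and 3433 reads, RPL7B, RPL4B with 1742 footprints and 6527 reads and RPL14B with 2089 footprints and 5857 reads. By footprints 32 of the 37 stood among the 300 highest genes of the table and 15 among the 100 highest. By reads 27 stood among the 300 highest and 9 among the 100 highest. In 35 of the 37 the rank by footprints was higher than the rank by reads. The share of all listed genes for which this holds was not computed.

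Since the copies of a pair encode the same or nearly the same protein, footprints were summed over a pair and divided by the codons of the reading frame, counted with the stop codon. On this scale the 20 proteins lay between 14.4 (Rpl4) and 138 (Rpl19) footprints per codon, with a median of 65.7. Their reads per codon lay between 59.3 (Rpl4) and 419 (Rpl10), with a median of 226. In footprints 16 of the 20 proteins were within 2-fold of the median, and the SD over the 20 proteins was 0.82 on the log2 scale, against 0.70 for reads per codon.

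Among proteins of the catalytic core, Rpl10, which joins the subunit late in the cytoplasm, had 115 footprints and 419 reads per codon. Rpl3, whose extensions reach towards the peptidyl transferase centre, had 49.3 footprints and 316 reads per codon. Rpl2, which packs against the same centre, had 66.3 footprints and 218 reads per codon. These 3 proteins stood in a different order in footprints and in reads, with Rpl3 second by reads and last by footprints. Rpl3 is also the longest of them, with 388 codons against 222 for Rpl10 and 256 for Rpl2. Footprints relative to reads fell with coding length, as described below.

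Rpl5 and Rpl11, which bind 5S rRNA together before they enter the ribosome, had 52.6 and 46.3 footprints per codon against 243 and 108 reads per codon. Rpl4 and Rpl17, which line the narrow part of the exit tunnel, had 14.4 and 89.7 footprints per codon against 59.3 and 234 reads per codon. Rpl1, which forms the stalk beside the exit site of emptied tRNA, had 21.5 footprints and 110 reads per codon. Partners of one structure thus differed in these counts, the tunnel pair by more than the 5S pair. They also differ in length, with 363 codons for Rpl4 and 185 for Rpl17, and 298 for Rpl5 and 175 for Rpl11. The part of length in these differences was not tested. Rpl4, Rpl11 and Rpl1 come from nearly identical gene copies, so their levels are uncertain, as described below.

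Rpl12, at the base of the stalk that contacts translation factors, had 113 footprints and 281 reads per codon. Rpl19, which forms a bridge to the small subunit, had the highest footprint value, 138 per codon, with 401 reads per codon. Of the other proteins, Rpl16 had 104 and Rpl20 92.3 footprints per codon, and Rpl7 was lowest with 29.6. Their reads per codon were 322 for Rpl16, 237 for Rpl20 and 104 for Rpl7.

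The lowest 5 proteins by footprints per codon were Rpl4, Rpl1, Rpl7, Rpl11 and Rpl14. In 3 of these 5 (Rpl1, Rpl4 and Rpl11) the codon counts of the copies differ in at most 5% of codons, a lower bound on how far they differ, since codons that change place leave the counts equal. This bound was 2 of 218 for Rpl1, 8 of 363 for Rpl4 and 7 of 175 for Rpl11, and 8 of 139 (5.76%) for Rpl14, just outside the limit. Over the 17 pairs the percentage of differing codons ran with footprints per codon (Spearman rho 0.71) and with reads per codon (rho 0.77), as a description over proteins that share both libraries. Without the 3 near-identical pairs the SD was 0.57 for footprints and 0.48 for reads over 17 proteins, and 15 of 17 were within 2-fold of the median by footprints and 16 of 17 by reads. How the authors' alignment treated reads that match both copies is not given in the sources used here, and its part in these values was not tested.

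**Figure D1:**
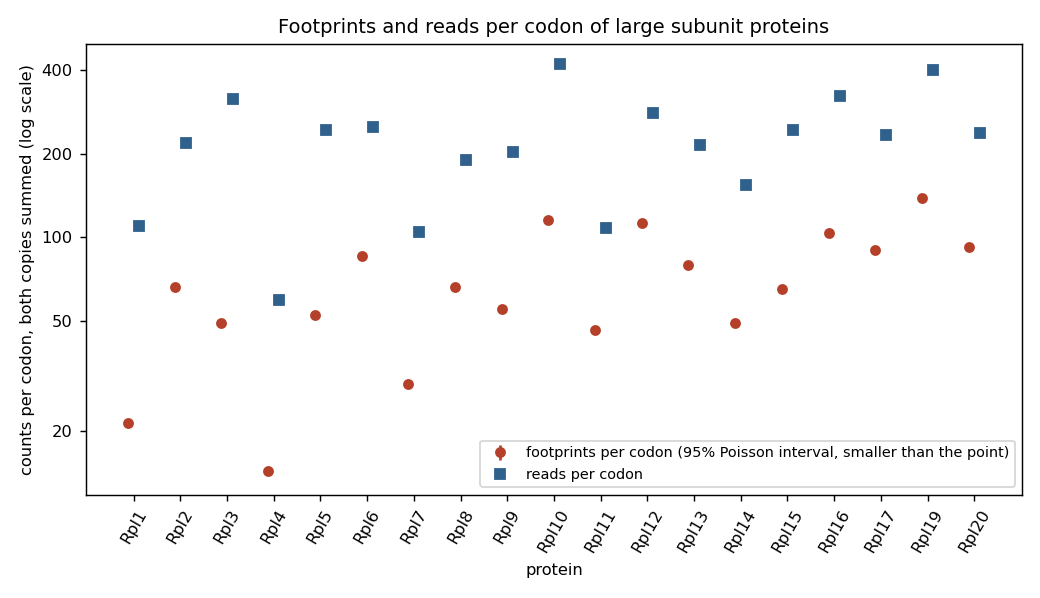
Footprints per codon (red circles) and reads per codon (blue squares) of 19 of the proteins, with the copies of a pair summed, on a log axis of counts per codon; bars are 95% Poisson intervals. Rpl4 has the lowest value of both kinds (14.4 and 59.3), Rpl19 the highest for footprints (138) and Rpl10 the highest for reads (419).

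The share of footprints was then divided by the share of reads for each gene, a value that is 1 when a gene takes equal parts of both. The median ratio of the 37 genes was 1.83 (log2 0.87), against 0.910 (log2 -0.14) over all tested genes, and 35 of the 37 had a ratio above 1, against a background of 44.9% of the tested genes. A ratio of at least 2 was reached by 11 of the 37 (29.7%), against a background of 12.5% of the tested genes. The count was 19 when ratios were scaled by the median gene, against a background of 16.4%. It was 36 when the abundance column was taken as already divided by coding length, against a background of 41.1%. Reads are then abundance times coding length, a change that favours short genes. The 37 genes have a median of 200 codons, against 378 over all tested genes. The median log2 ratio was 1.26 for the shorter proteins RPL21 to RPL43, 1.01 for the small subunit, 1.18 for the 5 stalk genes RPP0 to RPP2B and 0.52 for the proteins of the mitochondrial large subunit. The RPL1 to RPL20 genes were thus the lowest of the cytosolic groups by median, and they are also the longest, with a median of 200 codons against 121 for RPL21 to RPL43 and 144 for the small subunit. Against genes of like length, introduced next, they were no longer lowest. The median excess on the log2 scale was nearly equal for RPL1 to RPL20 (0.40) and RPL21 to RPL43 (0.39). It was 0.26 for the stalk genes and 0.19 for the small subunit, against 0.19 over all tested genes.

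The ratio fell with coding length, with a Spearman rho of -0.56 over the 37 genes and -0.85 over all tested genes. Each gene was therefore set beside the genes outside the cytosolic ribosomal proteins whose coding length was within 10% of its own. Above the median of those genes lay 34 of the 37, against a background of 65.2% of the tested genes. The median excess over the like-length median was 0.40 on the log2 scale, against 0.19 over all tested genes. When the like-length genes were limited to those with at least 100 footprints and 100 reads, 29 of the 37 lay above, against a background of 50.2%. The 3 genes below the median in the first comparison were RPL1B, by -0.48 on the log2 scale, RPL14A, by -0.09, and RPL1A, by -0.08.

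The 2 highest ratios belonged to RPL11B and RPL15B. RPL11B (YGR085C, chromosome VII:648383-648907 in RefSeq assembly R64), a gene for the 5S rRNA binder, had 4074 footprints and 6320 reads, a ratio of 3.66 (3.52 to 3.81), which ranked 29 of the 2939 tested genes. RPL15B (YMR121C, chromosome XIII:509734-510348), a gene for a protein buried in rRNA, had 485 footprints and 831 reads, a ratio of 3.32 (2.96 to 3.71). The 2 intervals overlap, and the next gene in order lay below both of them.

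RPL12B, a gene for the stalk base protein, had 11984 footprints and 26998 reads, a ratio of 2.52 (2.47 to 2.58). RPL20A, a gene for a protein on the solvent side, had 8614 footprints and 20767 reads, a ratio of 2.36 (2.30 to 2.42). RPL13B had 9861 footprints and 25173 reads, a ratio of 2.23 (2.17 to 2.28), and RPL17A, for the tunnel protein, had 10380 footprints and 26858 reads, a ratio of 2.20 (2.15 to 2.25). The intervals of RPL12B, RPL20A and RPL13B do not overlap those of their neighbours above, while that of RPL17A overlaps that of RPL13B.

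At the other end, RPL3 (YOR063W, chromosome XV:444686-445849), the longest of the genes at 388 codons, had 19116 footprints and 122655 reads, a ratio of 0.886 (0.872 to 0.899). RPL1B, for the stalk protein at the exit site, had 2214 footprints and 12979 reads, a ratio of 0.970 (0.926 to 1.01). RPL5, the single gene for the other 5S rRNA binder, had 15667 footprints and 72550 reads, a ratio of 1.23 (1.21 to 1.25). RPL3 lay below 1 by its interval and RPL1B did not differ from 1 beyond counting error, yet RPL3 was above the median of genes of its length by 0.15 on the log2 scale and RPL5 by 0.31.

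RPL1A had 2476 footprints and 10996 reads, a ratio of 1.28 (1.22 to 1.34). RPL4A, for the tunnel protein, had 3494 footprints and 15000 reads, a ratio of 1.32 (1.28 to 1.37), and RPL7B had 1692 footprints and 7009 reads, a ratio of 1.37 (1.30 to 1.45). RPL4A, with 363 codons, stood 0.63 above its like-length median on the log2 scale, RPL7B stood 0.15 above and RPL1A 0.08 below. RPL10, the third single gene, had 25628 footprints and 93077 reads, a ratio of 1.57 (1.54 to 1.59), and stood 0.26 above its like-length median.

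The remaining 24 genes lay between 1.49 (RPL15A) and 2.16 (RPL17B). In the order of all 37 ratios, 30 of 36 neighbouring genes had overlapping intervals, which alone does not show that their ratios are equal. The genes that do separate from their lower neighbour sit towards the ends of the order. Over the 37 genes, which share both libraries, the Spearman rho between the densities of footprints and of reads was 0.95, while reads per codon spanned 103-fold and ratios 4.14-fold.

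**Figure D2:**
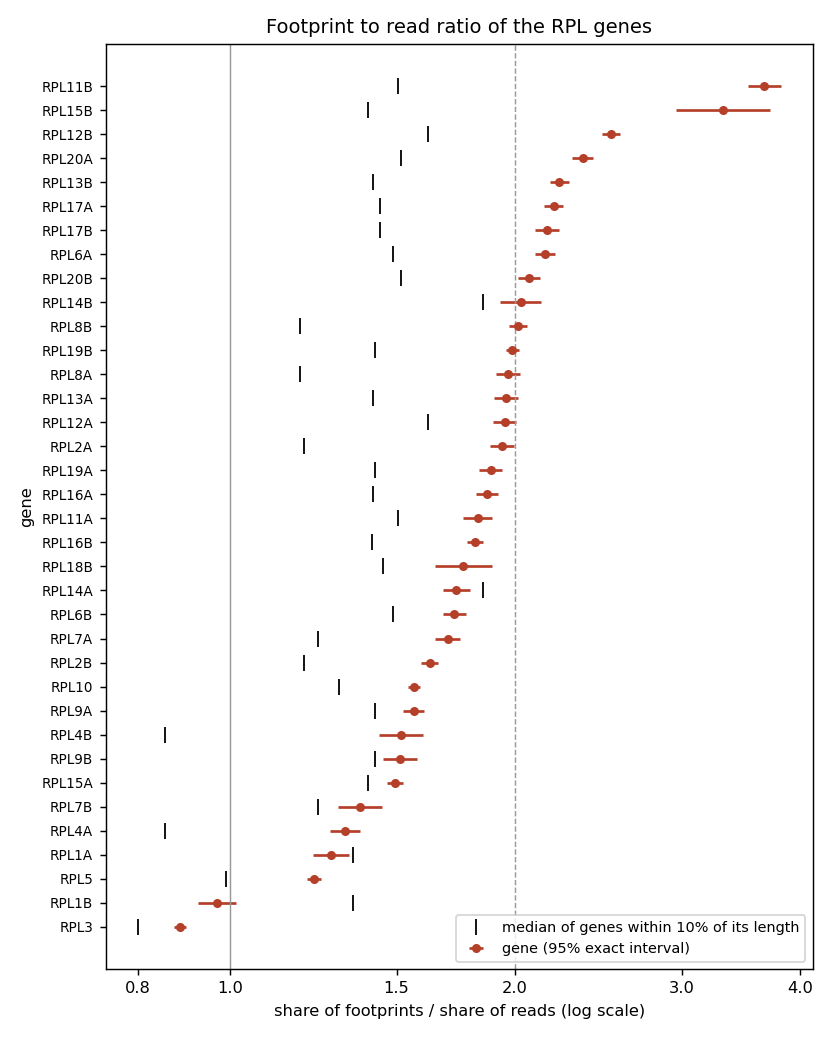
Ratio of the share of footprints to the share of reads for 36 of the genes on a log axis, with 95% exact intervals (red) and the median of genes outside the cytosolic ribosomal proteins within 10% of the same length (black ticks); grey lines mark 1 and 2. RPL11B (3.66) and RPL15B (3.32) lie highest and RPL3 (0.886) lowest, and RPL1A, RPL1B and RPL14A lie left of their ticks.

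The copies of a pair allow a comparison at nearly the same length and protein. The A copy held more footprints in 10 pairs and the B copy in 7, and the leading copy held at least 2 times the footprints of the other in 7 of 17. The same copy led in footprints and in reads in 15 of 17, with Rpl1 and Rpl11 as the 2 exceptions. The A copy's share of footprints followed its share of reads over the 17 pairs with a Spearman rho of 0.95.

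The widest split was that of Rpl15, where RPL15A had 12879 footprints and 48970 reads, against 485 footprints and 831 reads of RPL15B. RPL15A thus took 96.4% (96.0 to 96.7) of the footprints and 98.3% of the reads. The widest split towards the B copy was that of Rpl19, where RPL19A had 6814 footprints and 20548 reads, against 19569 and 55969 for RPL19B, so that RPL19A took 25.8% of the footprints and 26.9% of the reads.

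The footprint to read ratio of the A copy over that of the B copy differed by at least 1.5-fold in 2 of the 17 pairs, against a background of 20% (8 of 40) of the other cytosolic ribosomal protein pairs. The median size of this fold, in either direction, was 1.15 in the 17 pairs and 1.17 in the 40 others. In 13 of 17 pairs it was within 1.25-fold, and in 4 (Rpl8, Rpl9, Rpl16 and Rpl17) the interval included 1.

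The pair that differed most was Rpl15, with a ratio of 1.49 for RPL15A and 3.32 for RPL15B, a fold of 0.451 (0.402 to 0.506). Rpl11 was next, with 4026 footprints and 12525 reads of RPL11A, against 4074 and 6320 of RPL11B, ratios of 1.83 and 3.66 and a fold of 0.499 (0.473 to 0.526). Footprints of RPL11A and RPL11B were split nearly evenly (49.7% for RPL11A) while the reads were not (66.5% for RPL11A). The copies of Rpl15 differ in at least 16.6% of codons, those of Rpl11 in at least 7 of 175.

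Rpl1 had a fold of 1.32 (1.24 to 1.41), with ratios of 1.28 for RPL1A and 0.970 for RPL1B. Rpl12 had a fold of 0.773 (0.747 to 0.801), where RPL12A had 6732 footprints and 19611 reads, a ratio of 1.95, against 2.52 for RPL12B. Rpl6 had a fold of 1.25 (1.20 to 1.29), where RPL6A had 8924 footprints and 23573 reads, against 6227 and 20512 for RPL6B, ratios of 2.15 and 1.73. The A copy thus stood higher for Rpl1 and Rpl6 and lower for Rpl12.

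The smallest differences were those of Rpl17, Rpl8 and Rpl16. For Rpl17 the fold was 1.02 (0.979 to 1.05), from 10380 footprints and 26858 reads of RPL17A, against 6222 and 16356 of RPL17B. For Rpl8 the fold was 0.978 (0.943 to 1.01), from 6118 footprints and 17669 reads of RPL8A, against 10964 and 30961 of RPL8B. For Rpl16 it was 1.03 (0.996 to 1.06), from 7102 footprints and 21591 reads of RPL16A, against 13697 and 42890 of RPL16B. In these pairs the copies differed 1.67- to 1.93-fold in footprints while their ratios did not differ beyond counting error.

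**Figure D3:**
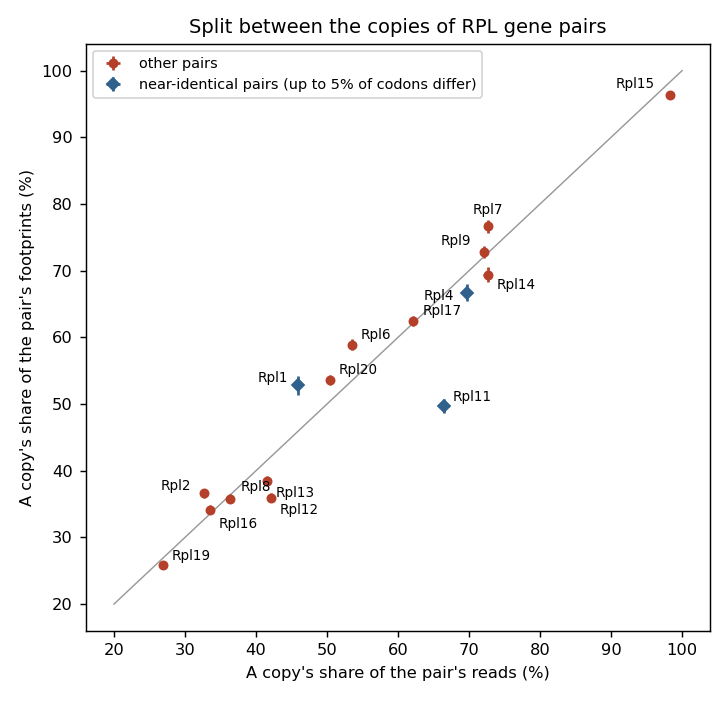
The A copy's share of the footprints of its pair (vertical, percent) against its share of the reads (horizontal, percent) for 16 of the pairs, with 95% exact intervals; blue diamonds are the 3 near-identical pairs and the grey line marks equal shares. Most pairs lie near the line from Rpl19 (25.8% and 26.9%) to Rpl15 (96.4% and 98.3%), and Rpl11 lies farthest below it (49.7% and 66.5%).

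The table counts footprints by kind of codon within each gene, so a codon kind that is present without a footprint marks positions of the gene where none was counted. Of the 37 genes 14 had no such sense codon, the median was 1 kind, and 10 genes had at least 5. The background was 29.8% of the genes with at least 2 footprints per codon. Among genes with at least 10 footprints per codon the background was 6.27% (16 of 255), and 7 of the 32 RPL genes at that density were among the 16.

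RPL1A and RPL1B lacked footprints on 15 of the 34 codon kinds of each, RPL4A on 8 of 36 and RPL4B on 10 of 36. RPL11A lacked them on 5 of 33 and RPL11B on 6 of 35, and RPL14A on 7 of 34 and RPL14B on 7 of 33. All 6 genes of the near-identical pairs had at least 5 such kinds, against 4 of the other 31 genes: RPL14A, RPL14B, RPL7A with 5 of 35 and RPL15B with 8 of 43. RPL15B had 2.37 footprints per codon, the lowest density of the 37 genes, and RPL7A 22.6. The single genes RPL3, RPL5 and RPL10 had footprints on every codon kind they contain.

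The codon counts of the Rpl1 copies differ in 4 kinds of codon. RPL1A has 2 AAT codons with 625 footprints and RPL1B has 1 with 0, while AAC carried 49 footprints on 12 codons of RPL1A and 537 on 13 codons of RPL1B. The 2 AAT codons alone held 25.2% of the footprints of RPL1A, 27.5 times the gene mean per codon. ACT had 37 footprints on 2 codons of RPL1A and 0 on 1 codon of RPL1B, and ACC had 0 on 4 codons of RPL1A and 32 on 5 codons of RPL1B. Together these 4 kinds made up 9.22% of the sense codons of each gene. They held 29.0% of the sense codon footprints of RPL1A and 26.2% of those of RPL1B, and the rest lay on other codon kinds. The counts carry no positions, so how near those footprints lay to the differing codons cannot be told.

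In Rpl4 the kinds that differ behaved less evenly. CCT had 69 footprints on 2 codons of RPL4A and 278 on 3 codons of RPL4B, 3.58 and 19.3 times the gene mean. GGT, with 26 codons in RPL4A and 27 in RPL4B, had 0 footprints in RPL4A and 22 in RPL4B. In Rpl11 the CTC codon that RPL11B alone has carried 144 footprints, 6.19 times the gene mean. Whether reads shared between copies were dropped was not tested, and levels, ratios and codon values of these 6 genes are uncertain for that reason. The other pairs are not free of that doubt. Rpl14, just outside the limit at 5.76%, had 7 codon kinds without a footprint in each copy.

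**Figure D4:**
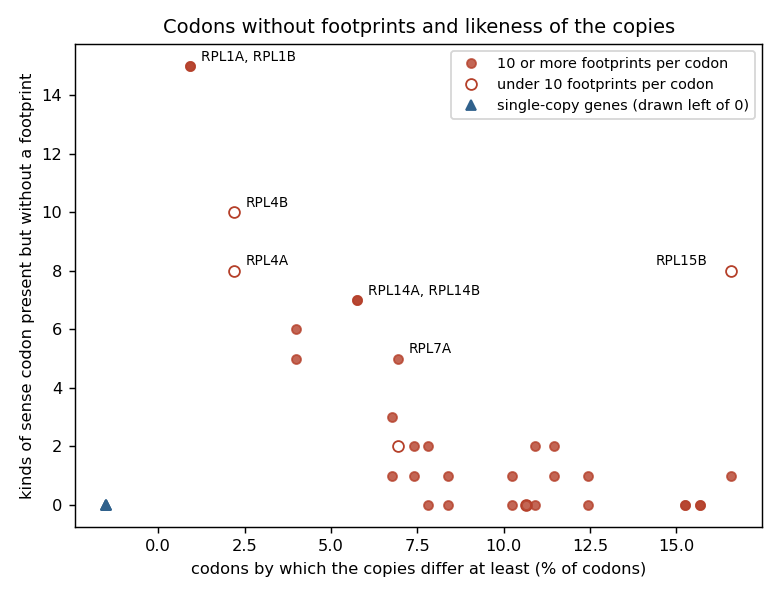
Number of sense codon kinds present in a gene without a footprint (vertical) against the lower bound on the percentage of codons that differ between the copies (horizontal); filled circles have at least 10 footprints per codon, open circles fewer, and blue triangles are the 3 single genes, drawn left of 0. RPL1A and RPL1B reach 15 kinds at under 1% difference, and the triangles sit at 0.

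The favoured codons of yeast, 23 of the 61 sense codons, made up 87.6% of the sense codons of the 37 genes, against 50.6% in the other tested genes. The shares were 86.0% in RPL21 to RPL43 and 86.4% in the small subunit. RPL8B had the highest share, 93.8%, and RPL15B the lowest, 74.0%, with RPL15A at 87.3%. In 12 of the 17 pairs the copy with more footprints had the larger share of favoured codons. The share of the other cytosolic ribosomal protein pairs for which this holds was not computed, so the count is not particular to these pairs.

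The most used codons were AAG (lysine, 742 codons), GCT (alanine, 600) and AGA (arginine, 543), and ACG, CCG, CGA and GGG were absent from all 37 genes. Lysine and arginine, the basic residues that contact rRNA, together made up 19.5% of the sense codons, against 11.9% over the listed genes. The lowest share was that of RPL5 (14.8%) and the highest that of RPL15A (27.0%). The acidic residues aspartate and glutamate made up 8.90%, against 12.7%.

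For each codon kind the footprints per codon were divided by the mean of the gene and averaged over the codons of the 37 genes. Favoured codons had a value of 0.957 (0.952 to 0.963) and the other sense codons 1.16 (1.14 to 1.18), a difference of -0.20. The same difference was -0.28 in the other tested genes, -0.12 in the small subunit and -0.01 in RPL21 to RPL43. Within the 37 genes it was -0.52 in the near-identical pairs, -0.14 without them and 0.06 in the 3 single genes, so its sign was not the same in all of them. With each gene's codons capped at its 90th percentile the difference was -0.0031 in the 37 genes, against -0.19 in the other tested genes.

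The 5 highest sense codons with at least 20 occurrences were TGT (cysteine), CCT (proline), AAT (asparagine), GGC (glycine) and GCC (alanine). TGT had a value of 3.50 (3.31 to 3.71) on 26 codons, against 0.707 in the other tested genes, and 1.39 without the near-identical pairs. RPL1A alone had 471 footprints on 3 TGT codons, 13.8 times its mean, and RPL1B 245 on 3, 8.04 times its mean, while 9 of the 18 genes with TGT were above 1. AAT had 1.86 (1.75 to 1.99) on 45 codons, against 0.692 in the other tested genes, and 0.719 without the near-identical pairs. Without the near-identical pairs TGT thus stayed above its value in the other genes, and AAT came close to it. With each gene's codons capped at its 90th percentile, TGT had 1.81, against 0.715 in the other tested genes, and AAT 0.892, against 0.759.

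CCT had a value of 3.43 (3.25 to 3.62) on 47 codons, against 1.76 (1.72 to 1.79) in the other tested genes, and 2.13 (2.02 to 2.27) without the near-identical pairs. With the codons of each gene capped at its 90th percentile the value was 1.58, below the 1.66 of the other tested genes, so the higher value in the 37 genes rested on the highest codons of each gene. It was uneven over genes, with 15 of 29 above 1 and a median of 1.04. High values were those of RPL4B (19.3), RPL11B (325 footprints on its only CCT, 14.0) and RPL7A (198 on its only CCT, 8.74). RPL1A, RPL1B, RPL2A, RPL8A and RPL8B had no footprint on CCT.

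GGC had a value of 1.59 (1.46 to 1.76) on 20 codons, against 1.39 in the other tested genes. GCC had 1.46 (1.41 to 1.52) on 193 codons, against 1.07. Both stayed at that height without the near-identical pairs, at 1.65 for GGC and 1.58 for GCC. CCA, the usual proline codon with 272 occurrences, had 1.25 (1.22 to 1.28), against 1.19, and CCC had 2.85 (1.78 to 4.45) on 2 codons, against 2.28.

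The lowest were TTT (phenylalanine), ATG (methionine), ACC (threonine), GTC (valine) and TTC (phenylalanine). TTT had 0.489 (0.456 to 0.528) on 48 codons, against 0.685 in the other tested genes, and ATG had 0.566 (0.531 to 0.608) on 95 codons, against 0.850. Start codons are included in both ATG values and make up 37 of the 95 ATG codons (38.9%), against 10.6% of those in the other tested genes. If no footprint lay on a start codon, the other ATG codons would stand at 0.927, against 0.951 in the other tested genes. ACC had 0.648, GTC 0.652 and TTC 0.653, against 0.735, 0.691 and 0.682. Both phenylalanine codons were thus among the 5 lowest in these genes.

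Of the CGN codons of arginine, CGT had 128 occurrences and a value of 1.08 (1.04 to 1.12), against 0.977 in the other tested genes. CGC had 1.45 (1.24 to 1.96) on 3 codons, against 1.85, and the only CGG, in RPL15B, had 8 footprints, 3.38 (1.46 to 6.66) times the gene mean, against 2.57. AGA, the usual arginine codon, had 1.15 (1.13 to 1.17), against 0.993.

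**Figure D5:**
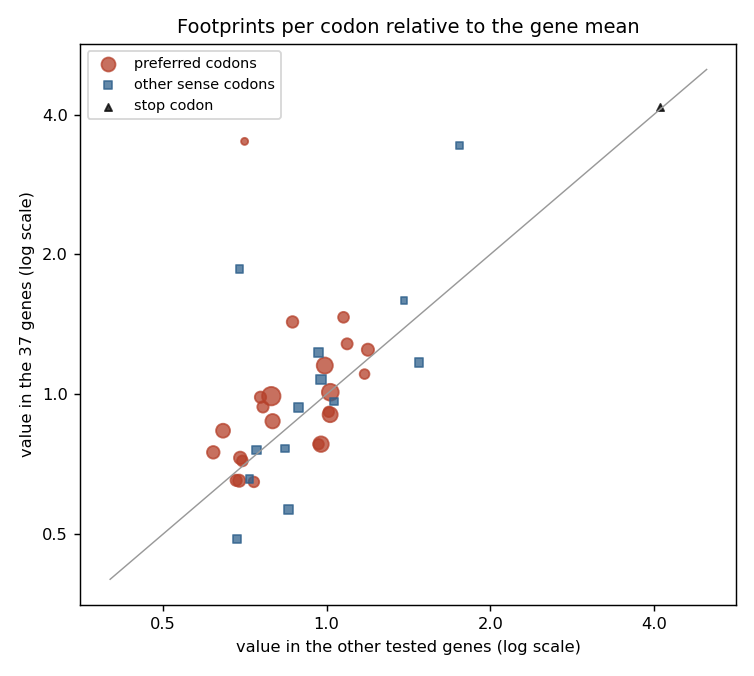
Footprints per codon relative to the gene mean for codon kinds with at least 20 occurrences in the 37 genes (vertical), against the same value in the other tested genes (horizontal), on log axes; red circles are favoured codons, blue squares other sense codons, the black triangle the commonest stop codon, and the symbol area grows with the number of occurrences. Most points lie near the line of equal values, and 3 sense codons stand well above it, at 3.50 and 0.707, 3.43 and 1.76, and 1.86 and 0.692.

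Stop codons were TAA in 31 genes, TAG in 4 and TGA in 2. Every gene had footprints on its stop codon, from 2 (RPL7B) over a median of 75 to 711 (RPL2B). Relative to the gene mean the median was 2.47, against 1.98 in the 821 other genes with at least 2 footprints per codon, of which 79 had none. A value of at least 2 was found in 21 of the 37 genes, against a background of 49.9%. The 37 genes had a median of 35.3 footprints per codon, so empty stop codons were not compared at like depth.

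The stop codon of RPL4B, a TAG, was highest at 24.0 times the gene mean, and TAA in RPL2B had 16.9, TAA in RPL4A 16.7, TGA in RPL15B 13.9 and TAA in RPL5 13.2. Lowest were TAA in RPL7B, 0.290, and TGA in RPL20A, 0.303. Copies of the same protein could stand far apart, as for Rpl20 with 0.303 for RPL20A and 4.65 for RPL20B. Without the near-identical pairs the median was 2.00.

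A sense codon that occurs once in a gene gives the footprints of a single position. The 37 genes held 246 such codons, of which 35 had at least 3 times the gene mean, against a background of 12.4% in genes with at least 2 footprints per codon. No footprint lay on 62 of them, against a background of 24.8%. Of these 62, the near-identical pairs held 30 of their 45 single codons and the other genes 32 of their 201. The highest after the CCT codons of RPL11B and RPL7A were TAC (tyrosine) in RPL18B with 48 footprints, 8.47 (6.25 to 11.2) times the mean, and TGG (tryptophan) in RPL13A with 243 footprints, 7.92 (6.96 to 8.98) times the mean. ATT in RPL1A with 85 footprints stood at 7.48 and GGC in RPL14A with 251 footprints at 7.36.

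In 9 of the genes the start codon is the only ATG. Its footprints summed to 9, against 408 at the gene means, a value of 0.0246, against 0.0581 in the 145 other tested genes with 1 ATG. The 9 footprints fell on RPL6B (5), RPL17B (2) and RPL19B (2), and the other 6 genes had 0. The start codon was thus nearly empty in these genes. Which base of a footprint set its codon is not stated by the authors' labels or headers, and its part in the start and stop values was not tested.

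By gene span less coding length in RefSeq assembly R64, 20 of the genes contain intron sequence and 17 do not. The intron bases per gene, taken in total, ran from 144 (RPL2A) to 927 (RPL7A). The median log2 ratio was 0.93 in the 20 genes with an intron and 0.64 in the 17 without. The genes with an intron are also shorter in coding length, with a median of 189.5 codons against 218, and set against genes of like length the medians were 0.44 and 0.28 on the log2 scale. The copies of Rpl7 each hold the gene of a small nucleolar RNA, SNR39 inside RPL7A (chromosome VII:365163-365251) and SNR59 inside RPL7B (chromosome XVI:173827-173904). The genes without an intron also include all 6 genes of the near-identical pairs, whose ratios are uncertain, and the 3 single genes. The parts of coding length and of the near-identical pairs in the intron difference were not tested further.

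Genes that act on ribosomal proteins were set beside the 37. The 6 dedicated chaperones and importers, which guard single ribosomal proteins on their way to assembly, had a median log2 ratio of -0.15, against 0.87 for the 37 genes and -0.14 for all tested genes. Among them Acl4 guards Rpl4, Rrb1 guards Rpl3 and Sqt1 guards Rpl10, and Syo1 carries Rpl5 and Rpl11. ACL4 had 327 footprints and 1912 reads (ratio 0.972), RRB1 648 and 6000 (0.614), SQT1 662 and 4519 (0.833) and SYO1, the lowest of the list, 214 and 2767 (0.440), while YAR1 was highest at 1.42.

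The 10 partners of 5S RNP and late large subunit assembly had a median ratio of 0.540, from 0.0287 for REA1, a motor protein of 4911 codons, to 1.69 for RPF2, which with Rrs1 (1.58) brings Rpl5, Rpl11 and 5S rRNA into the precursor. Of the 7 methyltransferases that modify ribosomal proteins, 2 had at least 100 footprints and 100 reads, RMT2, whose enzyme methylates Rpl12, at 0.705 and HPM1, whose enzyme methylates Rpl3, at 0.459. Of the 6 transcription regulators of these genes 5 were in the table and 3 passed the same minimum, HMO1 at 1.31, RAP1 at 0.705 and SFP1 at 0.347. Against genes of like length the median log2 ratio was higher by 0.05 for the chaperones, by 0.07 for the transcription regulators and by 0.10 for the assembly partners without REA1, which has no gene of like length. It was 0.47 lower for the methyltransferases, 0.40 higher for the 37 genes and 0.19 higher over all tested genes. The chaperones, regulators and assembly partners thus lay below the value of all tested genes. At least 2 was reached by none of the 21 genes of these lists that passed it.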

How the data were processed

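The deposited table gives, for each gene and each of the 64 codons, footprint counts and a second number that the authors' headers call total; it matches the number of times the codon occurs and was used so. The authors deposited 1 abundance value per gene under an FPKM header; its values are whole multiples of a fixed step within 0.001 and sum as CPM, so the values the authors deposited were read as CPM over 21771294 reads, of which the listed genes hold 98.1%. Per the submitters' processing notes, cutadapt, Bowtie2, HISAT2, HTSeq and sacCer3 were used; the sources used here give neither their roles nor their versions.

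Ratios are shares of footprints over shares of reads, with exact conditional binomial (Clopper-Pearson) intervals, and folds between copies have exact conditional intervals. Codon values have gamma intervals with gene means held fixed. With 1 library per kind no test between groups was run. Calculations used Python 3.11.15, numpy 2.4.6, pandas 2.3.3 and scipy 1.17.1, and were tested on simulated data. Identifiers of 4578 of 4579 genes matched RefSeq assembly R64.

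Members and lists were chosen with earlier results of these data known. Named in full were the 6 highest and 6 lowest ratios, the 5 genes with most and the 5 with fewest footprints, the 5 most and 3 least different pairs, the single genes, and the 5 highest and 5 lowest codons with at least 20 occurrences, plus proline, CGN arginine and stop codons. Alternatives changed the scaling, the fold, the length window, the use of stop and top codons, and the use of near-identical pairs. For 1 of the genes, counted in all totals, values of its own are not reported here, and figures that label genes or pairs leave it out.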

Additional observations from a re-analysis of the deposited data

How the results depend on the processing

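No paired analysis was possible because footprints and total RNA have 1 library each, and for the same reason no replicate could be left out. The median log2 ratio (0.87) was 1.01 when scaled by the median gene, 0.88 without stop codons and 0.91 without near-identical pairs. It was 0.89 without the codon of most footprints per occurrence in each gene. It was 2.48 with abundance taken as already divided by coding length, as its FPKM header would have it. The count with a ratio of at least 2 (11 of 37) was 19 with the median gene scaling. It was 36 with abundance taken as length-divided. The count at a fold of 1.5 was 30, for which the share over all tested genes was not computed. With abundance taken as length-divided the log2 ratio of RPL3 changed sign, to 0.46 against -0.17. For single genes that setting moved 36 values, of 37. Median gene scaling moved 36, leaving out the codon of most footprints 14 and leaving out stop codons 4, of 37 each.

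The SD of log2 footprints per codon (0.82) was 1.26 over single genes, 0.86 without the codon of most footprints and 0.57 without near-identical pairs. The SD for reads (0.70) was 1.30 over single genes, 0.73 with abundance taken as length-divided and 0.48 without near-identical pairs. Pairs at least 1.5-fold apart fell to 1 without near-identical pairs. The favoured codon difference (-0.20) was -0.10 with pooled counts, -0.14 without near-identical pairs and -0.0031 with each gene's codons capped at its 90th percentile, so it rests on a few codons of high value per gene. The median stop codon value (2.47) was 3.76 pooled and 2.00 without near-identical pairs. Leaving out near-identical pairs was added after seeing the data for the 2 SDs and the named codons, as was capping for the named codons. Apart from what each alternative leaves out by construction, the cause was not tested. Depth limits RPL15B most, with 485 footprints and 831 reads.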
